A study of Homo sapiens with 6 samples.

Results

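Poly(A) RNA was sequenced from HCT116, an established human colorectal cancer cell line, and 9 genes of endocannabinoid and fatty amide turnover were followed across the 6 libraries. The 9 genes were FAAH, FAAH2, NAAA, NAPEPLD, MGLL, DAGLA, DAGLB, ABHD6 and ABHD12. They were chosen by symbol, and the set was picked because FAAH2 was known to fall, so the difference in FAAH2 is given as a description with no test. All 9 were found among the 56632 genes of the deposited tables, and all 9 passed the filter on low counts that left 16786 genes. The 3 siCTRL libraries came from cells given a negative control siRNA and the 3 siMatrin3 libraries from cells given a pool of siRNAs against Matrin3, which MATR3 encodes and which binds RNA in the nucleus. Both groups were transfected in 2 rounds, which the labels give as 72 and 48 hours. The study calls the libraries biological triplicates of this 1 line, and p-values here measure the spread between them.

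Endocannabinoids are lipid messengers that bind the same receptors as the active compounds of cannabis. Anandamide and the other N-acylethanolamines are amides of a fatty acid, released from a membrane phospholipid by NAPEPLD and broken down by FAAH, FAAH2 and NAAA. The other main endocannabinoid, 2-arachidonoylglycerol (2-AG), is an ester made by the diacylglycerol lipases DAGLA and DAGLB and split by MGLL, ABHD6 and ABHD12 into glycerol and arachidonic acid, from which prostaglandins are made. In the gut these lipids are known for effects on motility, appetite and inflammation.

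The libraries held 40808173 to 54185650 expected counts (estimated read counts that divide shared reads between genes), of which the 9 genes took 5640 to 7329 per library. Levels are given as TPM, transcript abundance per unit length with a fixed total in each library. MATR3 fell from 181 ± 5.01 to 106 ± 9.37 TPM (SD, n = 3 each), so its message was reduced and not lost. Of 6 colorectal epithelial markers, EPCAM, KRT8, KRT18, CDH1 and CDX2 were expressed, VIL1 stayed between 0.32 and 0.47 TPM, and KRT18 was lower in siMatrin3 (log2 fold change -0.15, edgeR adjusted p = 0.033), a call lost in 8 of 15 alternatives. Of 8 markers of other cell types 5 were tested and 0 were called by edgeR, with 0 at an unadjusted p under 0.05 and 0 by DESeq2. Over all 16786 genes tested edgeR called 11.0%, and 4364 had an unadjusted p under 0.05. DESeq2 called 6.09% of the 29320 genes it was given. Their summed level was 28.6 to 32.8 TPM in siCTRL and 28.2 to 35.2 TPM in siMatrin3, PTPRC and COL1A2 were listed at 0 in all 6 libraries, and nearly all of the sum was CD68 and COL1A1.

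The clearest difference among the 9 genes was the lower level of FAAH2, while the interval for its relative FAAH lay close to 0. FAAH2 (ENSG00000165591) encodes a membrane amidase of the same amidase signature family as FAAH, with a preference for monounsaturated substrates such as oleamide, and it lies on chromosome X. Its level was 6.08, 4.63 and 6.57 TPM in siCTRL replicates 1, 2 and 3 and 3.19, 2.98 and 2.78 TPM in siMatrin3 replicates 1, 2 and 3. Every siMatrin3 library lay below every siCTRL library. The means were 5.76 ± 1.01 and 2.98 ± 0.205 TPM (SD, n = 3 each), a ratio of 0.518.

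The reads behind FAAH2 separated the groups more widely than TPM did. The tables held 350, 244 and 297 expected counts in siCTRL and 128, 112 and 116 in siMatrin3, or 6.61, 5.98 and 6.14 CPM (counts scaled to library size) against 2.36, 2.60 and 2.54 CPM. On the count scale the edgeR log2 fold change was -1.31 (SE 0.10, 95% interval -1.53 to -1.08), which is 59.6% fewer reads relative to library size. The interval does not allow for the choice of FAAH2 on this same contrast, so it is not read as a test. Reads fall with transcript length as well as with the number of molecules. Of the 16786 genes tested, 75 had a log2 fold change this low or lower. In bulk RNA, fewer cells with the message and less message per cell cannot be told apart. Whether any siRNA acts on FAAH2 other than through Matrin3 was not tested.

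**Figure D1:**
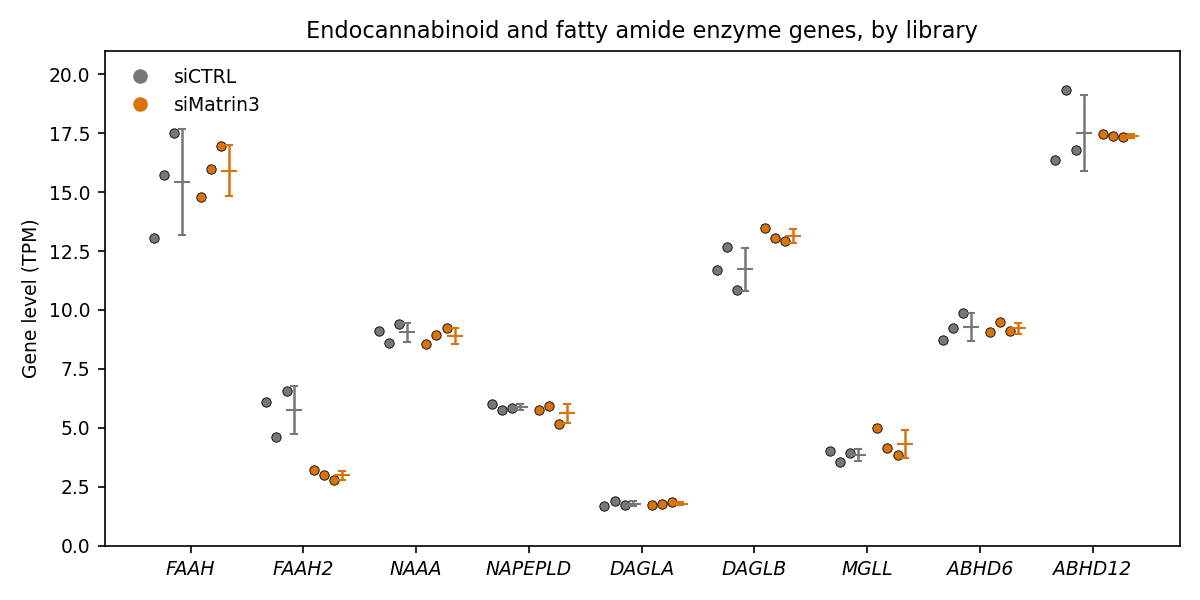
Level of the 9 genes in TPM, with siCTRL libraries as grey points and siMatrin3 libraries as orange points. Lines and bars give the mean and SD of 3 libraries. FAAH2 sits between 2.78 and 3.19 TPM in siMatrin3 and between 4.63 and 6.57 TPM in siCTRL, DAGLB is slightly higher in all 3 siMatrin3 libraries, and the groups overlap for the other 7 genes (groups did not overlap for 25.1% of all genes tested).

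The gap between the count and TPM values of FAAH2 reflects a difference in its estimated transcript length, because TPM divides counts by length. The tables give each gene a length averaged over its transcripts by estimated abundance, and for FAAH2 this was 1520, 1754 and 1322 bases in siCTRL and 1090, 1241 and 1296 bases in siMatrin3. The siMatrin3 libraries were all shorter, although siCTRL replicate 3 and siMatrin3 replicate 3 differed by few bases. The log2 difference was -0.34 (SE 0.13), and with the lengths taken into account as an offset the log2 fold change of FAAH2 was -0.93 (SE 0.16). The tables list 3 FAAH2 transcripts. In GENCODE 44 these are a coding transcript of 1980 bases and 11 exons and a pair of short transcripts with no defined coding sequence, of 383 and 524 bases, which begin around its exon 8. A shorter weighted length therefore means that a larger share of the FAAH2 molecules was assigned to the short transcripts, from an estimate that rests on 112 to 350 reads a library.

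Another gene annotated inside the FAAH2 locus had a higher count in siMatrin3. MTHFD1P1, a processed pseudogene copied from MTHFD1, a folate-pathway enzyme gene, lies between exons 7 and 8 of FAAH2 on the opposite strand in GENCODE 44, and is named here after its values were seen. It held 5 expected counts in each siCTRL library and 29.0, 19.0 and 16.0 in siMatrin3 replicates 1, 2 and 3. The siMatrin3 libraries were all higher, at a very low level: 0.05 ± 0.01 TPM in siCTRL and 0.21 ± 0.04 TPM in siMatrin3 (SD, n = 3 each; edgeR log2 fold change 2.06 with SE 0.36, adjusted p = 0.00633). With limma on log2(TPM + 1) the call was lost (adjusted p = 0.104), and DESeq2 gave it no adjusted p. MTHFD1 itself held 5436 to 8229 expected counts and was higher in siMatrin3 (log2 fold change 0.20, edgeR adjusted p = 0.0134), and 204 of the 2715 stretches of 50 bases in the pseudogene occur in MTHFD1 transcripts too. The part of MTHFD1 reads in the pseudogene's count was not tested. The strand setting of the counting is not given in the sources used here, so these reads cannot be told apart from reads of the FAAH2 intron on the other strand.

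**Figure D2:**
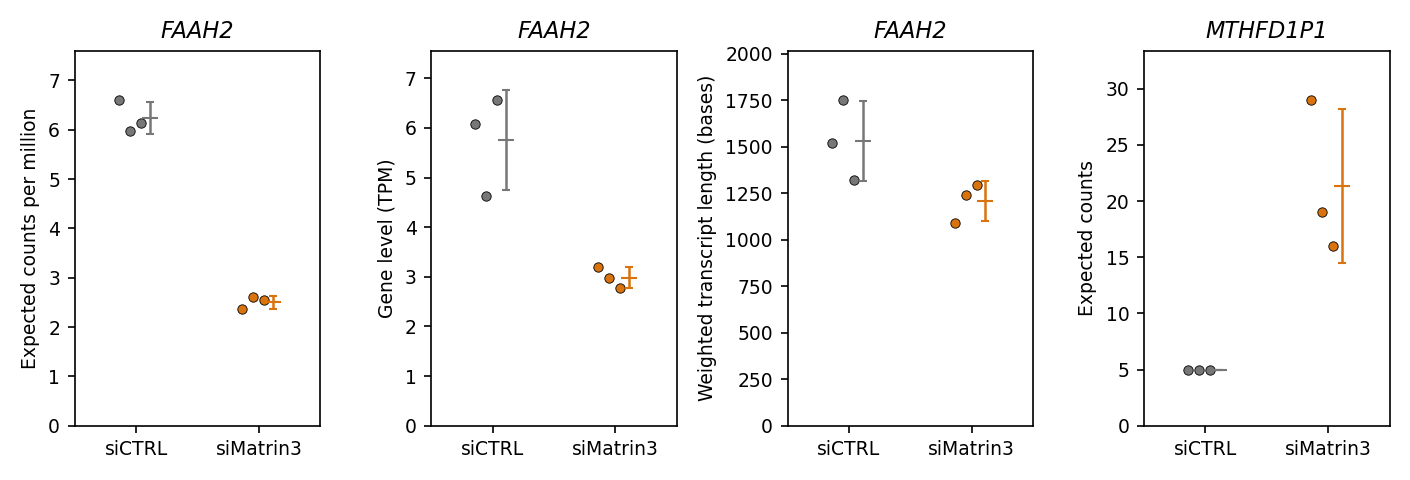
FAAH2 in CPM, TPM and weighted transcript length in bases, and expected counts of MTHFD1P1, the pseudogene inside the FAAH2 locus, where points are libraries of siCTRL (grey) and siMatrin3 (orange) and the line and bar are the mean and SD of 3. In the 3 FAAH2 panels all siMatrin3 points lie below all siCTRL points, most widely for CPM, and MTHFD1P1 rises from 5 counts in each siCTRL library to between 16.0 and 29.0. TPM is computed from counts and length, so the FAAH2 panels are not separate measurements.

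Neighbours were the 5 protein-coding genes before and the 5 after FAAH2 in order of gene start in RefSeq (GRCh38.p14). Of these 9 were tested and 1, SPIN4, was called lower, a share close to the 11.0% called over all genes tested. SPIN4, which encodes a spindlin family protein, went from 6.38 ± 0.143 to 5.46 ± 0.222 TPM (SD, n = 3 each; edgeR log2 fold change -0.20, adjusted p = 0.0338). The nearest on either side, SPIN2B and SPIN2A, had log2 fold changes of 0.16 and -0.26 and did not pass (edgeR adjusted p = 0.431 and 0.604). Among the 9 genes of the set FAAH2 combined a long locus with low GC content. Its locus spans 202 kb with 37.7% GC, at percentiles 93.6 and 8.81 of the genes tested. MGLL spans more, 363 kb, at 44.9% GC, and FAAH spans 19.5 kb at 55.3% GC.

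FAAH (ENSG00000117480), the main hydrolase of anandamide, was at 13.1, 15.7 and 17.5 TPM in siCTRL and 14.8, 16.0 and 17.0 TPM in siMatrin3. The groups overlapped fully, with a log2 fold change of 0.021 (95% interval -0.14 to 0.19, edgeR adjusted p = 0.894). FAAH and FAAH2 transcripts share no stretch of 50 bases with each other or with any other gene in GENCODE 44. FAAH2 therefore made up 31.8%, 22.8% and 27.3% of the summed TPM of the pair in siCTRL and 17.7%, 15.7% and 14.1% in siMatrin3. The sum of the pair was 21.2 ± 2.59 TPM in siCTRL and 18.9 ± 0.881 TPM in siMatrin3 (SD, n = 3 each), and the groups overlapped.

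NAAA and NAPEPLD, at either end of the N-acylethanolamine route, did not pass the test. NAAA, a lysosomal amidase that prefers palmitoylethanolamide, was at 9.12, 8.62 and 9.42 TPM in siCTRL and 8.54, 8.95 and 9.22 TPM in siMatrin3 (log2 fold change -0.058, 95% interval -0.21 to 0.091, edgeR adjusted p = 0.638). Its TPM values overlapped, although all 3 siMatrin3 libraries were lower in CPM, by little. NAPEPLD, the phospholipase D that releases N-acylethanolamines, was at 6.02, 5.76 and 5.83 TPM in siCTRL and 5.77, 5.93 and 5.16 TPM in siMatrin3 (log2 fold change 0.028, 95% interval -0.11 to 0.16, edgeR adjusted p = 0.821). The lowest NAPEPLD value was siMatrin3 replicate 3, and the other siMatrin3 libraries lay within the siCTRL range.

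DAGLB was the 1 gene of the other 8 that passed, by a small margin, where 11.0% of all genes tested were called. DAGLB (ENSG00000164535), a diacylglycerol lipase that makes 2-AG and is the form best known outside the nervous system, was at 11.7, 12.7 and 10.85 TPM in siCTRL and 13.5, 13.1 and 12.9 TPM in siMatrin3. The groups did not overlap, and siCTRL replicate 2 came within a short distance of the lowest siMatrin3 library. The means were 11.7 ± 0.906 and 13.2 ± 0.301 TPM (SD, n = 3 each), with a log2 fold change of 0.18 (SE 0.046, 95% interval 0.079 to 0.28, edgeR adjusted p = 0.0319). The call was lost with DESeq2 (adjusted p = 0.0634), with limma on TPM, with a transcript length offset and without any 1 library other than siCTRL replicate 2, where adjusted p ran from 0.0627 to 0.13. Over all alternatives adjusted p ran from 0.018 to 0.247. DAGLB also shares 376 exon bases on the same strand with KDELR2, a receptor that retrieves proteins to the endoplasmic reticulum, which was at 68.2 ± 1.40 and 71.9 ± 1.17 TPM (SD, n = 3 each; edgeR log2 fold change 0.087, adjusted p = 0.179). The part of KDELR2 reads in the DAGLB value was not tested.

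DAGLA, the lipase form that dominates in neurons, had the lowest level of the 9 genes, at 1.70, 1.90 and 1.72 TPM in siCTRL and 1.72, 1.77 and 1.86 TPM in siMatrin3. It did not pass (log2 fold change 0.029, 95% interval -0.14 to 0.20, edgeR adjusted p = 0.853), and the groups overlapped fully. DAGLB stood well above DAGLA in each library, so the message for 2-AG synthesis in these cells was mostly DAGLB. Their summed level was 13.5 ± 1.0 TPM in siCTRL and 14.9 ± 0.239 TPM in siMatrin3 (SD, n = 3 each).

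None of the 3 hydrolases of 2-AG passed the test by edgeR, with 0 at an unadjusted p under 0.05 and 0 called by DESeq2. Of all 16786 genes tested, 4364 had an unadjusted p under 0.05 and 11.0% were called. DESeq2 was run without that filter and called 1787 of 29320 genes (6.09%), among them genes too low for the edgeR filter. MGLL, the monoacylglycerol lipase that does most of this work in brain, was at 4.02, 3.57 and 3.95 TPM in siCTRL and 4.99, 4.16 and 3.83 TPM in siMatrin3. It had the widest interval of the set (log2 fold change 0.17, 95% interval -0.092 to 0.43, edgeR adjusted p = 0.414), and siMatrin3 replicate 1 stood above the rest: without it the log2 fold change was 0.015. ABHD6, a membrane-bound monoacylglycerol hydrolase, was at 8.73, 9.22 and 9.89 TPM in siCTRL and 9.08, 9.47 and 9.10 TPM in siMatrin3 (log2 fold change 0.016, 95% interval -0.12 to 0.15, edgeR adjusted p = 0.904). ABHD12, which also hydrolyses lysophosphatidylserine and whose loss causes the neurodegenerative syndrome PHARC, was the most abundant at 16.4, 19.3 and 16.8 TPM in siCTRL and 17.45, 17.4 and 17.3 TPM in siMatrin3 (log2 fold change 0.015, 95% interval -0.095 to 0.13, edgeR adjusted p = 0.888). For both ABHD genes all siMatrin3 values lay within the siCTRL range.

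**Figure D3:**
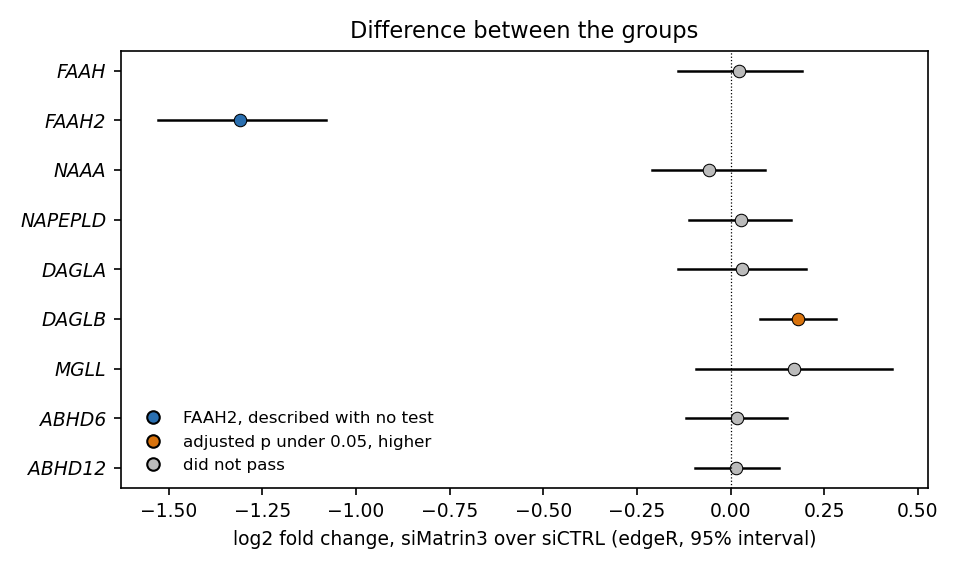
Log2 fold change of the 9 genes, siMatrin3 over siCTRL, from edgeR, where the bar is the 95% interval. FAAH2 stands at -1.31 (blue, described with no test), DAGLB at 0.18 passed the test (orange), and the intervals of the other 7 genes (grey) include 0 and run from -0.21 to 0.43 in all. The FAAH2 bar does not allow for its choice on this same contrast and is not read as a test.

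Of the 8 genes other than FAAH2, edgeR called 1 higher and 0 lower, with 1 at an unadjusted p under 0.05 and 0 called by DESeq2. Over all genes tested 5.05% were called higher and 5.97% lower, and 4364 of 16786 had an unadjusted p under 0.05. DESeq2 called 6.09% of all genes it was given. TPM values of the groups did not overlap for 1 of the 8 genes, DAGLB, and for 25.1% of all genes tested. FAAH2 did not overlap either, but the set was picked for its fall, so it is left out of this count. For the 8 genes other than FAAH2 the log2 fold change had a median size of 0.029, against 0.11 over all genes tested. The summed level of these 8 was 70.7, 76.8 and 76.0 TPM in siCTRL and 75.8, 76.7 and 76.4 TPM in siMatrin3.

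The order of levels by the siCTRL mean was ABHD12, FAAH, DAGLB, ABHD6, NAAA, NAPEPLD, FAAH2, MGLL and DAGLA. Neighbours whose siCTRL libraries overlapped, and whose order is not settled there, were ABHD12 and FAAH, ABHD6 and NAAA, and NAPEPLD and FAAH2. In siMatrin3 FAAH2 no longer overlapped NAPEPLD, whose lowest library was at 5.16 TPM, and its highest library, at 3.19 TPM, was below the lowest MGLL library, at 3.83 TPM.

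Weighted transcript length was tested for the 8 genes other than FAAH2 with limma. DAGLA was listed at 5757 bases in every library, so its test could not pass. None of the 8 passed, where 0.00823% of the 12148 genes tested, which is 1 gene, was called. None of the 8 had an unadjusted p under 0.05, as 767 of the 12148 genes did. The largest difference among them was that of NAPEPLD, from 3543 ± 116 to 3708 ± 79.8 bases (SD, n = 3 each; log2 difference 0.066, limma adjusted p = 0.842).

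Genes of the wider pathway and its enzyme families were taken from lists by role. Of 94 such genes in the tables, 75 were tested, 1 rose and 7 fell, a share close to the 11.0% called over all genes tested. Their median log2 fold change was 0.0036, against -0.0011 over all genes tested. Among other enzymes of N-acylethanolamine synthesis 1 of 6 tested fell and 0 rose, where 5.97% of all genes tested were called lower and 5.05% higher. PLAAT3, a phospholipid acyltransferase, fell from 17.6 ± 1.17 to 14.8 ± 0.488 TPM (SD, n = 3 each; edgeR log2 fold change -0.21, adjusted p = 0.0461), a call lost in 12 of 15 alternatives. GDE1, ABHD4 and GDPD1, which make N-acylethanolamines without NAPEPLD, had log2 fold changes of -0.046, -0.14 and 0.033 and did not pass.

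Phospholipase C enzymes, which release the diacylglycerol that DAGLA and DAGLB use, had 3 of 9 lower and 0 higher, where 5.97% of all genes tested were called lower and 5.05% higher. The median log2 fold change of the 9 was -0.016. PLCB1 went from 5.46, 6.03 and 4.55 TPM in siCTRL to 4.12, 4.19 and 4.5 TPM in siMatrin3, so the groups came close without overlapping (log2 fold change -0.38, SE 0.061, edgeR adjusted p = 0.00472). PLCB1 kept its call in 12 of 15 alternatives. The 3 that lost it were the length offset and both limma fits to TPM. PLCB4 and PLCE1 had log2 fold changes of -0.42 each (edgeR adjusted p = 0.033 and 0.03) and overlapped between groups in TPM, and each lost the call in 8 of 15 alternatives. PLCB2 went the other way by a similar size, from 2.08 ± 0.428 to 2.73 ± 0.203 TPM (SD, n = 3 each), and its groups overlapped. Its log2 fold change was 0.44 and it did not pass (edgeR adjusted p = 0.0881). The abundant PLCD3, PLCB3 and PLCG1 had log2 fold changes of 0.0036, -0.016 and 0.075 and did not pass.

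Of 9 tested genes listed under oxidation of endocannabinoids and arachidonate, 2 fell and 0 rose, against 5.97% lower and 5.05% higher over all genes tested. Both that fell were cyclooxygenases. The 9 also hold the prostaglandin E synthases PTGES, PTGES2 and PTGES3, which do not themselves oxidise these lipids. The median log2 fold change of the 9 was -0.043. CYP2J2, in the same list, narrowly missed the threshold, at 1.28 ± 0.107 and 0.837 ± 0.101 TPM with no overlap (SD, n = 3 each; edgeR log2 fold change -0.59, adjusted p = 0.0504). PTGES2 and PTGES3 were slightly higher without overlap (log2 fold changes 0.12 and 0.11) and did not pass. PTGS1 went from 2.75 ± 0.342 to 2.13 ± 0.163 TPM (SD, n = 3 each; edgeR log2 fold change -0.42, adjusted p = 0.0272). PTGS2, the inducible form, which also converts 2-AG, was low throughout, at 0.65, 0.62 and 0.42 TPM in siCTRL and 0.27, 0.24 and 0.30 TPM in siMatrin3 (log2 fold change -0.75, edgeR adjusted p = 0.047). Neither PTGS1 nor PTGS2 overlapped between groups, and the calls were lost in 8 and 9 of 15 alternatives. Of 13 tested genes of arachidonate release and re-esterification 1 fell, the acyl-CoA synthetase ACSL5, at 231, 229 and 230.5 TPM in siCTRL and 206, 212 and 212 TPM in siMatrin3 (log2 fold change -0.13, edgeR adjusted p = 0.0327, lost in 8 of 15). LPCAT3, which puts arachidonate back into phospholipids, had a log2 fold change of 0.14 and did not pass (edgeR adjusted p = 0.0599).

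Cannabinoid receptors were near or at the limit of the tables. CNR1 was listed at 0 TPM in all 6 libraries, CNR2, GPR18, GPR55 and GPR119 did not exceed 0.08 TPM in any, and 6 of the 11 receptor-list genes were not tested. Of the 5 tested, 1 rose and 0 fell, where 5.05% of all genes tested were called higher and 5.97% lower. The gene that rose was PPARG, a nuclear receptor for fatty acid derivatives. PPARG was at 56.0, 49.5 and 52.3 TPM in siCTRL and 63.7, 60.8 and 58.75 TPM in siMatrin3, with no overlap (log2 fold change 0.23, SE 0.059, edgeR adjusted p = 0.0322, lost in 8 of 15 alternatives). PPARA, the nuclear receptor that binds oleoylethanolamide, had a log2 fold change of -0.17, and the channel TRPV1 of -0.33, and neither passed (edgeR adjusted p = 0.126 and 0.397).

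The other lists had no gene called by edgeR, where 11.0% of all genes tested were called. Shares to set beside the counts below are 4364 of all 16786 genes at an unadjusted p under 0.05 and 1787 of 29320 called by DESeq2 (6.09%). The DESeq2 share includes genes too low for the edgeR filter, so the 2 shares are not on the same base. Of 11 other hydrolases of 2-AG, monoacylglycerols or N-acylethanolamines 0 were called, with 1 at an unadjusted p under 0.05 and 0 by DESeq2. ASAH1, the acid ceramidase related to NAAA, was among them at a log2 fold change of -0.099. Of 20 tested genes of the ABHD family 0 were called, with 3 at an unadjusted p under 0.05 and 0 by DESeq2. Of 2 tested carriers 0 were called by edgeR, with 1 at an unadjusted p under 0.05 and 1 by DESeq2, and FABP5, a carrier of anandamide, had a log2 fold change of 0.20 (edgeR adjusted p = 0.0521). The list of fatty acid amide genes and amidase relatives held 5 genes, not all of them amidases. Of these 0 were called by edgeR, with 1 at an unadjusted p under 0.05 and 1 by DESeq2. The gene at that unadjusted level was PAM, which is not an amidase. In that list QRSL1, a mitochondrial member of the amidase signature family, had a log2 fold change of 0.015.

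**Figure D4:**
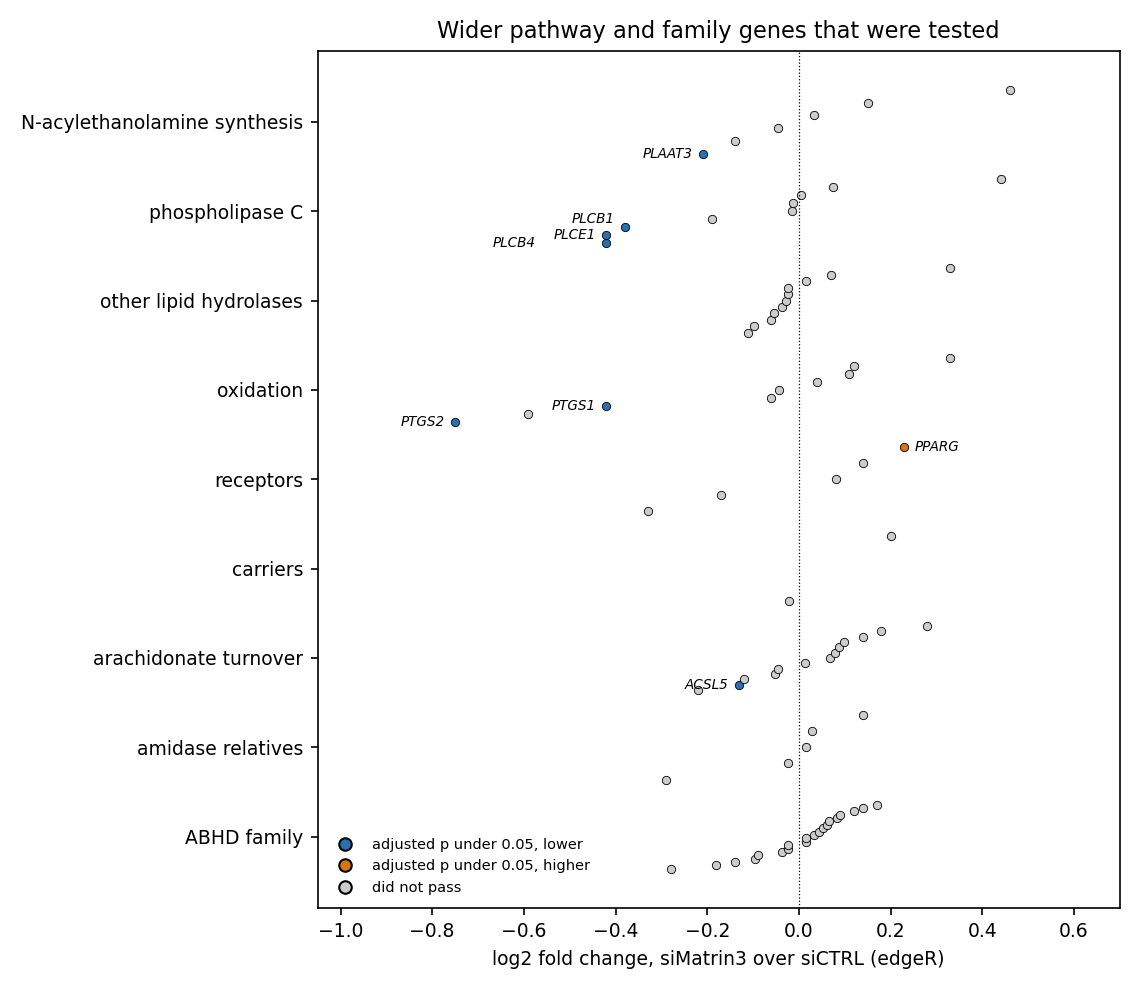
Log2 fold change from edgeR of the tested genes of the wider pathway and family lists, siMatrin3 over siCTRL, where each point is a gene. The height of a point within its list only spreads the genes, and ABHD6 and ABHD12 appear in the ABHD row. PTGS2 at -0.75 is the lowest of the 7 genes past the threshold in the lower direction (blue), PPARG at 0.23 is the 1 higher (orange), and the rest (grey) did not pass.

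Genes whose levels ran most like FAAH2 across the libraries were sought among 9569 protein-coding genes with a mean of at least 5 TPM, by Pearson's r on log2(TPM + 1) over the 6 libraries. The highest were RAB12, PAQR5, PRKCA, DUSP4 and SLTM, with r of 0.998, 0.996, 0.995, 0.993 and 0.991. These values describe 6 points that share the split between groups. PRKCA, a protein kinase C that diacylglycerol activates, went from 7.19 ± 0.524 to 5.44 ± 0.213 TPM (SD, n = 3 each; edgeR log2 fold change -0.35). Among the set itself r with FAAH2 ran from -0.903 for DAGLB to 0.541 for NAPEPLD.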

How the data were processed

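The library kit (TruSeq Stranded mRNA) marks strand, and reads were paired. The authors aligned reads to hg19 with STAR (2.5.1 in the submitters' processing notes, which also name cutadapt, and another version in the methods) and quantified genes with RSEM. Each deposited table gives expected counts, TPM (scaled by the authors to 1 total in every library) and lengths weighted by transcript abundance. The deposited FPKM values of the authors were not used. Symbols (88.28% of genes matched) and features came from GENCODE 44 on GRCh38, another build, so no coordinates are given. The study gives times of harvest in the methods that differ from the labels.

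Groups came from the labels. Expected counts were rounded, passed through filterByExpr and given TMM factors. The test was the two-sided quasi-likelihood test of edgeR 4.0.16 in R 4.3.3 with no covariates, with Benjamini-Hochberg adjusted p under 0.05 over all 16786 genes as the threshold. The study used DESeq2, here (1.42.0) an alternative. Weighted length was tested with limma 3.58.1 on log2 length for genes that have at least 2 transcripts and 50 expected counts in every library. For edgeR, SE was derived as the size of the log2 fold change divided by the square root of its quasi-likelihood F statistic. Intervals use this SE and a t quantile. TPM alternatives used log2(TPM + 1) and log2(TPM + 0.1). Further alternatives were scaling by RLE or upper quartile, leaving out the filter, 1 CPM in 3 libraries, a replicate block, a transcript length offset and leaving out each library. The steps were tested on simulated data.

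The genes and lists were chosen with earlier results of these data known. Named were the 9 genes, called list genes with up to 4 others per list by level, and the 5 genes most like FAAH2. Neighbours of FAAH2, 5 on each side by RefSeq gene start, were taken too. MTHFD1P1, MTHFD1, KDELR2, CYP2J2, PLCB2, cell type markers and genes at or near 0 were named beside these.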

Additional observations from a re-analysis of the deposited data

How the results depend on the processing

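FAAH2 was lower in all 15 alternatives, from -1.34 to -0.75 on the log2 scale: it moved to -0.93 with the length offset, -0.91 in the limma fit to log2(TPM + 0.1) and -0.75 in that to log2(TPM + 1), whose pseudocount shrinks low genes, and leaving out single libraries gave -1.34 to -1.26. The number of the 9 genes called, 2, became 1 with the length offset, DESeq2 and both limma fits to TPM, and 1 to 2 without single libraries. This count includes FAAH2, which was chosen on the same contrast, so only the loss of DAGLB is read from it. The number of wider pathway genes called, 8, became 1 with the length offset, 0 in both limma fits to TPM and 1 to 5 without single libraries. No length alternative called any of the 8 genes, of which DAGLA, with the same length in every library, could not be called. Several genes that did not pass changed sign close to 0, where leaving out single libraries gave at most 0.076 for FAAH, 0.077 for NAPEPLD, 0.06 for ABHD6 and 0.056 for ABHD12. NAPEPLD went to -0.045 with a length offset, -0.055 and -0.064 with limma on log2(TPM + 1) and log2(TPM + 0.1), and -0.01 without siMatrin3 replicate 2. ABHD6 went to -0.0023 with upper quartile scaling, -0.0076 and -0.0082 with limma, -0.02 without siCTRL replicate 1 and -0.011 without siMatrin3 replicate 2, ABHD12 to -0.0036, -0.0059 and -0.006 in the first 3 of these and -0.02 without siCTRL replicate 1, and FAAH to -0.036 without siCTRL replicate 1 and -0.032 without siMatrin3 replicate 3. Over all genes, 4.21% to 16.2% of edgeR tests and 2.56% to 2.60% of limma tests on TPM were called. The cause of these differences was not tested. The replicate block called 2 of the 9 genes, 14 wider pathway genes and 2716 genes in all, against 1849 without it. Deviations of same-numbered libraries had correlations of 0.177, 0.0896 and 7.21e-05. Replicates 1 and 2 correlated best with their own number and replicate 3 did not, so a pairing was not established, and what same-numbered libraries share was not tested. Counts of 112 to 350 reads limit the FAAH2 length estimate, and counts of 5 to 29 reads limit the level and fold change of MTHFD1P1.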
